A study of Sus scrofa with 8 samples.

Results

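The regions described here are the m6A peaks that the authors annotated to the 5' untranslated region (5' UTR), the stretch of a messenger RNA ahead of its start codon, in pig muscle. N6-methyladenosine (m6A) is a methyl mark on adenosines of messenger RNA, and a peak is a stretch of a transcript that an antibody against the mark enriched over input RNA. Every peak with that annotation was taken from genes for which no list gives more than 3 peaks, and peaks that overlapped or adjoined on a transcript were merged over the animals into sites. This gave 1433 peaks, which merged into 718 sites in 684 genes, out of 8649 sites of any annotated part in 5132 genes. Sites were merged within each annotated part, so a stretch with annotations to different parts was counted once in each of them. A list was counted at a site when any of its peaks, whatever its annotated part, overlapped or adjoined the site.

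The study profiled muscle of 2 Jinhua males, a Chinese breed with more fat within the muscle, and 2 Landrace males, a Danish breed, all aged 180 days, to ask what m6A does in the deposition of that fat. The 8 samples fell into 4 groups of 2, which were Jinhua immunoprecipitated RNA (IP), Jinhua input, Landrace IP and Landrace input. RNA extraction with TRIzol, mRNA purification and the m6A antibody from Synaptic Systems were common to the breeds, and the labels name no treatment. The deposited data are 1 peak list per animal, and they hold neither read counts nor enrichment, so sequencing depth is unknown and a site could be compared only by whether and where a peak was listed.

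As background, m6A is written by a complex built around METTL3 and METTL14, removed by the demethylases FTO and ALKBH5, and bound by reader proteins of the YTH family. Most m6A in mammalian mRNA lies near stop codons and in 3' UTRs. In 5' UTRs it has been linked to cap-independent initiation of translation, and antibodies against m6A also bind m6Am, a related mark that PCIF1 places on an adenosine next to the cap. A peak at the start of a transcript can therefore hold either mark.

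The lists held 6433 and 7733 peaks in Jinhua 1 and 2, and 6471 and 6176 peaks in Landrace 1 and 2. Of 87 symbols for sarcomere and calcium-handling genes, 68 gene identifiers carried a peak in at least 1 list, so muscle transcripts were present. This was not particular to muscle genes. The counts were 45 for 58 symbols of heat shock proteins and cochaperones, 17 for 20 fibro-adipogenic markers and 45 for 81 ribosomal proteins. Jinhua 2 had the longest list, and it was also the list with most sites of its own. The lists name genes on one transcript each, and positions below are bases of that transcript, counted from 1 at its 5' end.

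There were 323 peaks annotated to 5' UTRs in Jinhua 1 and 411 in Jinhua 2, against 391 in Landrace 1 and 308 in Landrace 2. The breeds overlapped, with the most peaks in Jinhua 2, which had the longest list, and the fewest in Landrace 2, which had the shortest. The mean number was 367 ± 62.2 for Jinhua against 349.5 ± 58.7 for Landrace (SD, 2 animals a breed), a difference of 17.5 (two-sided exact permutation test, p = 0.667). The difference turned to -26.5 without Jinhua 2 and to -24 without Landrace 2. With 2 animals per breed the smallest p this test can give is 0.333.

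As a share of all peaks in the 5132 genes kept, 5' UTR peaks made up 6.89% (95% Wilson interval 6.20% to 7.65%) in Jinhua 1, 7.19% (6.55% to 7.89%) in Jinhua 2, 8.45% (7.68% to 9.29%) in Landrace 1 and 6.96% (6.25% to 7.75%) in Landrace 2. Landrace 1 was highest and the other 3 animals lay close together, although its interval overlapped those of Jinhua 2 and Landrace 2. The mean share was 7.04% ± 0.208 for Jinhua against 7.71% ± 1.05 for Landrace (SD, 2 animals a breed), a difference of -0.667 percentage points (exact permutation test, p = 0.667), and it was 0.0777 without Landrace 1. These intervals cover counting error over peaks only.

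**Figure D1:**
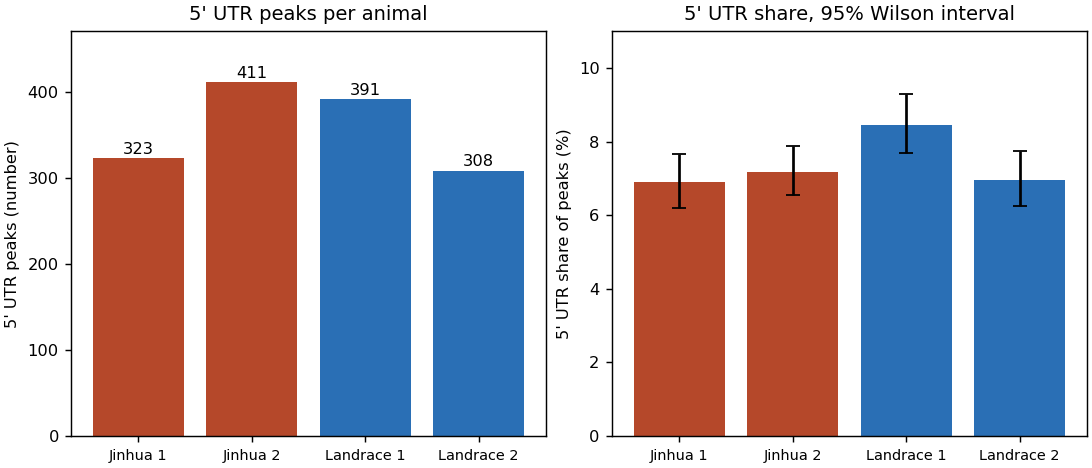
Number of peaks annotated to 5' UTRs in each animal (left) and their share of all peaks in the genes kept, in percent (right), with 95% Wilson intervals as error bars. Counts of 323 and 411 in Jinhua overlap those of 391 and 308 in Landrace, and only Landrace 1 reaches a share of 8.45%.

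Most genes had a single 5' UTR site. In all, 651 of the 684 genes held 1 site, 32 held 2 and 1 held 3. Genes with more than 3 peaks in a list were left out, so low numbers of sites and peaks per gene follow in part from the selection. The 5' UTR peak was the only peak of its gene in 51.5% and 55.5% of such genes in Jinhua 1 and 2, and in 52.1% and 57.0% in Landrace 1 and 2. Among genes with a coding peak, the share with a single peak was 62.1% and 58.8% in the Jinhua animals and 62.1% and 62.0% in the Landrace animals. Among genes with a 3' UTR peak it was 51.8% and 44.7% in the Jinhua animals and 46.9% and 49.5% in the Landrace animals. A coding peak was also listed for 28.0% and 30.7% of the genes in the Jinhua animals and for 30.9% and 25.3% in the Landrace animals. A 3' UTR peak was also listed for 21.2% and 17.1% of the genes in the Jinhua animals and for 16.5% and 16.7% in the Landrace animals.

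The gene with 3 sites was PPP3CA, the catalytic subunit of the calcium-dependent phosphatase calcineurin. Its site at bases 123 to 420 carried a peak in all 4 lists, while bases 525 to 678 were listed in Landrace 1 alone and bases 702 to 855 in Jinhua 2 alone. CAMK2D, a calcium- and calmodulin-dependent kinase of muscle, held 2 sites, at bases 1 to 144 and 181 to 320, and both were met in all 4 lists. RAB35, a small GTPase of endosome recycling, held bases 931 to 1150 in all 4 lists and bases 1222 to 1384 in both Jinhua lists and Landrace 2. In CDYL, a chromodomain protein, bases 571 to 788 were shared by all 4 animals and bases 221 to 410 by Jinhua 1 and Landrace 1. In FBXO18, an F-box DNA helicase, bases 415 to 638 were shared by all 4 and bases 181 to 383 by Jinhua 1 and Landrace 2. In each of these 5 transcripts at least 1 site was common to all 4 animals, and of the other sites only the second of CAMK2D was.

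Sites lay close to the 5' end. The median first base of a site was 66, and 129 sites (18.0%) began at base 1, the first base of the transcript model. A peak began at base 1 in 17.0% and 13.9% of 5' UTR peaks in Jinhua 1 and 2 and in 18.4% and 20.5% in Landrace 1 and 2. Among coding peaks the share was 8.65% and 7.21% in the Jinhua animals and 9.94% and 8.32% in the Landrace animals, so 5' UTR peaks had the higher share in every animal. Of the sites that began at base 1, 48 (37.2%) were met in all 4 lists. The share in all 4 lists was 29.9% of 177 sites beginning at bases 2 to 50, 26.0% of 131 at bases 51 to 100, 22.8% of 123 at bases 101 to 200, 15.1% of 93 at bases 201 to 400 and 24.6% of 65 beyond base 400. Sites found in a single list made the opposite picture, at 27.1% of those beginning at base 1 and 50.8% of those beyond base 400. The first base of a site is the earliest over its merged 5' UTR peaks, so a site in more lists had more chances to begin early. At 23 of the 48 sites that began at base 1 and were in all 4 lists, every list began there. No test was made of this gradient, since sites are not replicates.

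**Figure D2:**
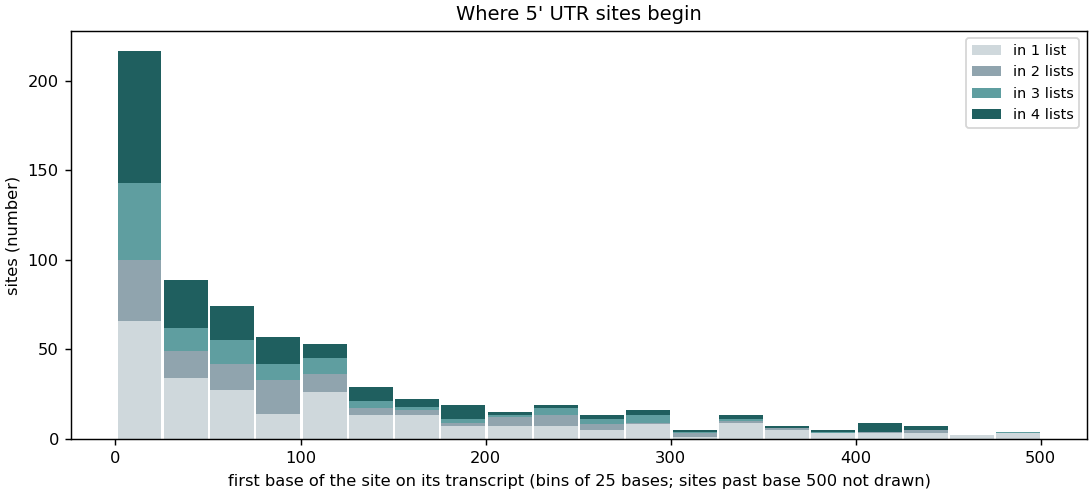
Number of 5' UTR sites by the first base of the site on its transcript, in bins of 25 bases up to base 500, with shades for the number of lists that have a peak at the site. The first bin is the tallest, and the median first base over all sites is 66.

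A few sites began far into the transcript. Among sites in 2 or more lists and in genes with a symbol, KMT2A, a histone H3 lysine methyltransferase, had the farthest, at bases 5863 to 6045, with peaks at 5863 to 6045 in Jinhua 2 and 5921 to 6024 in Landrace 2, so that by the lists' annotation its 5' UTR runs for at least 6045 bases. After KMT2A came both RAB35 sites. LMO2, a LIM-domain transcription cofactor, followed with bases 896 to 1090, listed as 5' UTR in Jinhua 1, Jinhua 2 and Landrace 2 and as coding in Landrace 1. CCDC8, a component of a cullin ligase complex, had bases 711 to 860, where Jinhua 2 alone carried the 5' UTR annotation and the other 3 lists an overlapping coding peak. The median over genes of the last base covered by a 5' UTR peak was 220, and it lay beyond base 500 in 74 genes.

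Peaks in 5' UTRs had a lower median width than coding peaks in each animal. Their median width was 148 and 151 bases in Jinhua 1 and 2 and 148 and 145 bases in Landrace 1 and 2, against 157 and 156 bases for coding peaks in Jinhua 1 and 2 and 156 bases in both Landrace animals. The difference, 5' UTR minus coding, averaged -8.25 ± 2.5 bases (SD over 4 animals) and had the same sign in all 4 (exact sign-flip permutation test, p = 0.125, the smallest that 4 animals allow). It was -4.25 bases in genes called in all 4 lists. Widths ran from 100 to 378 bases, and no peak was below 100. Peaks of exactly 100 bases made up 13.6% and 16.5% of 5' UTR peaks in the Jinhua animals and 16.1% and 17.9% in the Landrace animals, against 10.1% and 10.5% of coding peaks in the Jinhua animals and 11.3% and 11.2% in the Landrace animals. Width is not independent of the annotation, which followed the last base of a peak, as the order of peaks along the transcripts showed.

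In 368 transcripts with peaks of both kinds there were 2153 pairs of a 5' UTR and a coding peak, taken over all lists. None of these pairs was out of order by the last base of the peak, 4 were by the midpoint and 76 by the first base, while 338 pairs overlapped. Coding and 3' UTR peaks behaved alike, with 0 of 7501 pairs out of order by last base, 14 by midpoint and 106 by first base. The annotation thus followed the base where a peak ended. In FAM3A, a member of a family of cytokine-like proteins, peaks ending at base 486 in Jinhua 1 and 491 in Jinhua 2 were annotated as coding, and peaks ending at base 482 in Landrace 1 and 485 in Landrace 2 as 5' UTR. In SFRP2, a secreted inhibitor of Wnt signalling, peaks ending at bases 320, 319 and 319 in Jinhua 1, Jinhua 2 and Landrace 1 were 5' UTR, and the Landrace 2 peak ending at base 321 was coding. Both genes were chosen after their positions were seen.

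**Figure D3:**
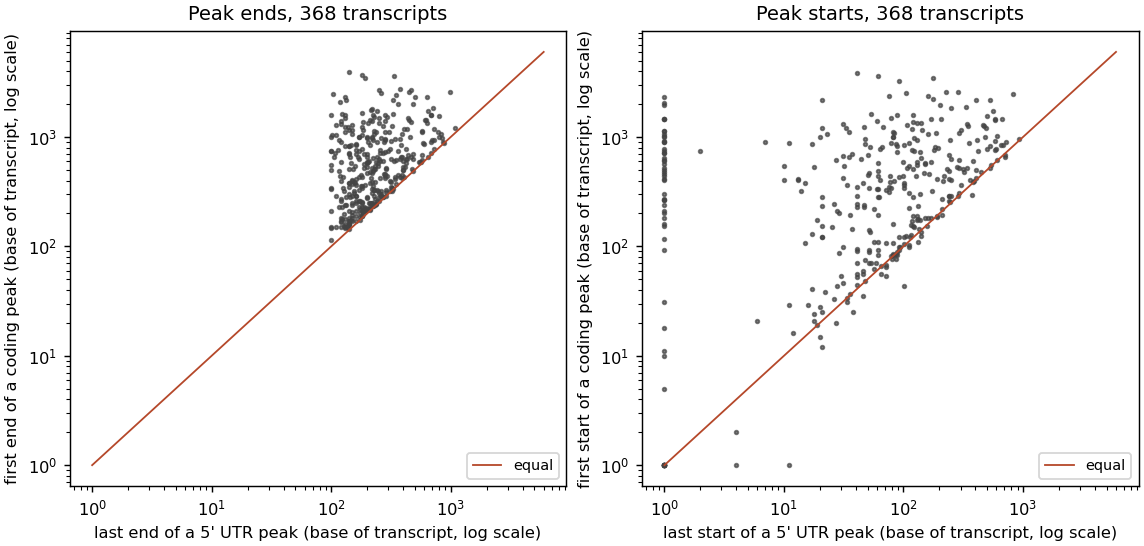
For each of 368 transcripts with both kinds of peak, the last 5' UTR peak (horizontal) against the first coding peak (vertical), by last base on the left and by first base on the right, in bases of the transcript on log axes, with the line of equality in red. All points lie above the line on the left, while points fall below it on the right.

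In all, 156 of the 718 sites (21.7%) also held a peak annotated as coding, and 562 held only 5' UTR annotations. Of the mixed sites, 70 were met in all 4 lists. At these 70, Jinhua 1 had a 5' UTR annotation at 25 sites and Jinhua 2 at 26, against 50 in Landrace 1 and 38 in Landrace 2. A coding annotation stood at 51 and 46 of them in Jinhua 1 and 2, against 26 and 39 in Landrace 1 and 2. The same stretch of RNA was thus listed as 5' UTR more often in the Landrace animals, and the breeds did not overlap, though no test with 2 animals per breed could pass. Counting every peak at a 5' UTR site whatever its annotation, 394 and 480 sites were met in Jinhua 1 and 2 and 424 and 361 in Landrace 1 and 2.

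The peak ends behind these annotations differed slightly between animals. At 116 sites with 1 peak per list, all annotated as 5' UTR, the last base lay on average 1.77 and 4.24 bases after the mean of the 4 lists in Jinhua 1 and 2, and at -3.76 and -2.26 bases from it in Landrace 1 and 2. At 1206 coding sites the same offsets were 5.06 and 3.86 bases in the Jinhua animals and -6.46 and -2.46 bases in the Landrace animals. At 393 sites in 3' UTRs they were 5.98 and 2.40 bases in the Jinhua animals and -6.27 and -2.10 bases in the Landrace animals. The later ends in Jinhua were therefore not limited to 5' UTRs. What moves the ends was not tested.

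S100A16, a calcium-binding protein, shows how few bases decide the annotation. Its peaks at bases 81 to 241 in Jinhua 1 and 82 to 241 in Jinhua 2 were listed as coding, and its peaks at bases 78 to 234 in both Landrace animals as 5' UTR. ATP6V0C, a proton-pump subunit, had coding peaks ending at bases 149 and 152 in Jinhua 1 and 2, a 5' UTR peak ending at base 141 in Landrace 1 and a coding peak ending at base 143 in Landrace 2. All 4 peaks of ATP6V0C began at base 1. Read by annotation alone, the S100A16 site would belong to Landrace, yet a peak was present in every animal.

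Of the 718 sites, 193 (26.9%) had a peak in all 4 lists, beside 26.9% of sites of any annotated part. Another 115 were met in 3 lists, 132 in 2 and 278 (38.7%) in 1. Among coding sites 26.2% were met in all 4 lists and 39.4% in 1, and among 3' UTR sites 29.3% and 36.9%, so the spread over lists in 5' UTRs was close to that elsewhere. Of the 278 sites in a single list, Jinhua 2 held 123, Landrace 1 held 67, Jinhua 1 held 50 and Landrace 2 held 38. In 150 of the 278 the whole gene was called in that list alone, and in such genes low expression and absence of the mark cannot be told apart.

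The share of 5' UTR peaks met in another list, averaged over the 3 other lists, was 65.9% in Jinhua 1, 52.9% in Jinhua 2, 63.3% in Landrace 1 and 70.2% in Landrace 2. For coding peaks it was 67.8% and 55.6% in Jinhua 1 and 2 and 66.1% and 68.7% in Landrace 1 and 2. For 3' UTR peaks it was 65.8% and 60.0% in the Jinhua animals and 70.2% and 71.6% in the Landrace animals. The difference, 5' UTR minus coding, averaged -1.48 ± 2.04 percentage points (SD over 4 animals, exact sign-flip permutation test, p = 0.25) with 3 of 4 animals lower, and it was -0.423 without Jinhua 2 and -2.23 without Landrace 1. Against 3' UTR peaks it was -3.82 ± 3.75 points (exact sign-flip permutation test, p = 0.25), again with 3 of 4 lower. Neither difference held its sign in genes called in all 4 lists, where the values were 0.415 and 0.220 points. The animals share lists, so these p-values are a guide only.

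**Figure D4:**
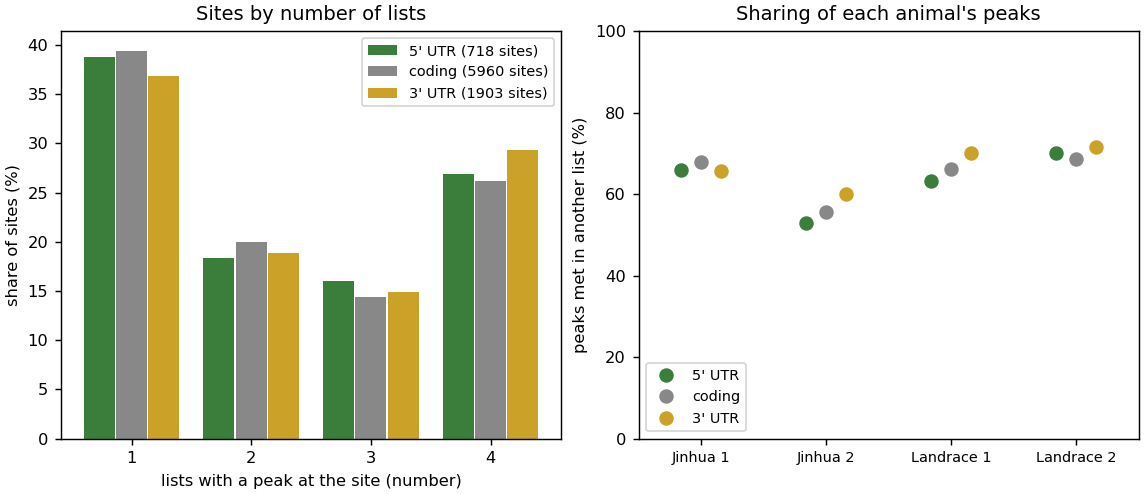
Share of sites in percent met in 1, 2, 3 or 4 lists for 5' UTR, coding and 3' UTR sites (left), and the percentage of each animal's peaks met in another list, averaged over the 3 other lists (right). The 3 parts of the transcript differ little within an animal, and Jinhua 2 is lowest for each.

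Pairs of 1 breed and pairs across breeds overlapped in how many sites they shared. The share of sites met in both of 2 lists, among those met in either, was 50.2% for the 2 Jinhua animals and 53.3% for the 2 Landrace animals. Between breeds it was 50.9% for Jinhua 1 with Landrace 1, 51.3% for Jinhua 1 with Landrace 2, 45.8% for Jinhua 2 with Landrace 1 and 43.3% for Jinhua 2 with Landrace 2. This measure moves with list length. In numbers, Jinhua 1 shared 292 sites with Jinhua 2, 276 with Landrace 1 and 256 with Landrace 2, and Jinhua 2 had the longest list. Between 13 and 18 peaks had identical first and last bases in a pair of lists, so no list repeated another.

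At the 193 shared sites the 4 first bases spread over a median of 21 bases and the 4 last bases over a median of 38. With 1 peak taken per list, the spread of first bases reached 269, and at 8 sites no base was common to the 4 peaks. The first bases lay within 20 bases of each other at 94 sites and the last bases at 63. The first base was the same in all 4 lists at 27 sites, and at 23 of these it was base 1. The mean first base was later in Jinhua at 111 sites, earlier at 52 and equal at 30, and the mean last base was later in Jinhua at 123, earlier at 65 and equal at 5.

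Among genes with a symbol, the tightest shared sites included genes of fuel use. PNPLA2, the triglyceride lipase that starts the breakdown of stored fat, had a peak at bases 1 to 150 in each of the 4 animals. SLC2A4, the insulin-responsive glucose transporter GLUT4, had peaks at bases 1 to 117 and 1 to 116 in Jinhua 1 and 2 and at bases 1 to 113 and 1 to 116 in Landrace 1 and 2. PFKFB1, an enzyme that sets the level of fructose 2,6-bisphosphate and so the pace of glycolysis, had peaks within bases 10 to 168 in all 4. These sites were chosen for a peak in all 4 lists and for their common bases, so agreement between the breeds follows from the choice. The choice also favours sites where every peak begins at base 1.

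Other tight sites lay in genes of varied roles. KLHDC2, a substrate receptor of a ubiquitin ligase, had a peak at bases 1 to 100 in every list. CTGF, a matrix-associated growth regulator, had peaks at bases 12 to 168 in both Jinhua animals and Landrace 1 and at 13 to 169 in Landrace 2. CTNNB1, the Wnt effector β-catenin, had peaks within bases 84 to 240. POPDC3, a cyclic AMP-binding membrane protein of striated muscle, began at base 91 in all 4 lists. The kinases MAP3K3 and DYRK1A had sites at bases 1 to 124 and 1 to 133, the chaperone partner PTGES3 at bases 1 to 133, and SAR1B, a GTPase of vesicle coats, at bases 1 to 125. MORF4L1, a chromatin reader, was listed at bases 1 to 106, BLCAP, a small membrane protein, at bases 4 to 160, and PCOLCE2, an enhancer of procollagen processing, at bases 190 to 367. CA14, a membrane carbonic anhydrase, was the site farthest along among these, at bases 557 to 714.

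Sites listed in both animals of 1 breed and in neither of the other were few. There were 33 Jinhua-only sites (4.60%), beside 5.83% of sites of any part, and 31 Landrace-only sites (4.32%), beside 3.4%. Among coding sites the shares were 6.04% Jinhua-only and 3.51% Landrace-only, and among 3' UTR sites 5.62% and 2.57%. The 2 counts in 5' UTRs were nearly equal, whereas among coding and 3' UTR sites Jinhua-only sites outnumbered Landrace-only ones, and that contrast was not tested. Among sites annotated as UTR with no side given there were 4 Jinhua-only and 5 Landrace-only. The near equality depended on the counting, with 22 Jinhua-only and 9 Landrace-only sites from peaks of 150 bases or more, and 25 and 34 when only 5' UTR annotations counted. Split across breeds, 29 sites were in Jinhua 2 and Landrace 1 alone, 15 in Jinhua 2 and Landrace 2, 14 in Jinhua 1 and Landrace 1 and 10 in Jinhua 1 and Landrace 2, so 1 pair of unlike breed came close to the counts within breeds and the other 3 were lower. The counts rest on each single list. Jinhua-only sites numbered 151 without Jinhua 1, 78 without Jinhua 2, 72 without Landrace 1 and 54 without Landrace 2. Landrace-only sites numbered 57 without Jinhua 1, 51 without Jinhua 2, 64 without Landrace 1 and 98 without Landrace 2.

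The genes behind the breed-only sites were called in different numbers of lists. Of the Jinhua-only sites, 29 of 33 lay in genes with no peak in either Landrace list and 3 in genes called in all 4 lists, while of the Landrace-only sites 10 of 31 lay in genes with no peak in either Jinhua list and 15 in genes called in all 4. For coding sites 111 of 360 Jinhua-only and 71 of 209 Landrace-only sites were in genes called in all 4. For 3' UTR sites 23 of 107 Jinhua-only and 25 of 49 Landrace-only sites were, so the lower Jinhua count was not limited to 5' UTRs. Over all 5' UTR sites, 329 of 718 lay in genes called in all 4 lists. These differences were not tested.

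Breed-only sites in genes with a symbol, which hold 28 of the Jinhua-only and 29 of the Landrace-only sites, were ranked by the share of bases common to the peaks of both animals. Peaks that begin at base 1 share that edge, so the ranking favours such sites. The first Jinhua-only sites were in MTCP1, at bases 108 to 260 in Jinhua 1 and 108 to 261 in Jinhua 2, and in AGTR1, the type 1 angiotensin II receptor, at bases 67 to 220 and 67 to 216. SLC38A2, a transporter that carries glutamine and other neutral amino acids into cells, had peaks at bases 1 to 125 and 1 to 120. None of these 3 genes had any peak in a Landrace list. PSMD1, a subunit of the proteasome cap, was listed at bases 95 to 246 and 80 to 233, and RNF185, a ubiquitin ligase of the endoplasmic reticulum, at bases 33 to 160 and 33 to 170. CACYBP, a calcyclin-binding protein of ubiquitin ligase complexes, had peaks at bases 521 to 660 and 523 to 670. PRDX5, a peroxide-reducing enzyme, SMARCB1, a subunit of the SWI/SNF chromatin remodeller, and RC3H1, an RNA-binding repressor of mRNA stability, were also among the first 15 in genes with a symbol. Within those 15, only AP4B1, a subunit of an adaptor complex, was a gene with peaks in Landrace as well, 1 in each animal at another place. RAB28, RNASEH2A, SPG21, CCDC28A and FAM213A made up the rest.

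The first Landrace-only sites by the same ranking were in genes of transcription, the Z-disc and Hedgehog signalling. CDK9, the kinase that releases paused RNA polymerase II, had a peak at bases 1 to 100 in both Landrace animals. NEXN, an actin-binding protein of the Z-disc, had a peak at bases 1 to 139 in both. SMO, the signal transducer of the Hedgehog pathway, had peaks at bases 2 to 161 in Landrace 1 and 1 to 160 in Landrace 2. All 3 genes had peaks elsewhere on the transcript in both Jinhua lists, so their mRNA was detected in every animal. FOSL2, a member of the AP-1 transcription factors, had peaks at bases 79 to 232 and 80 to 233 and no peak in a Jinhua list. FKBP5, a glucocorticoid-induced cochaperone, had peaks at bases 1 to 128 and 1 to 130, with 1 peak elsewhere in Jinhua 2. In CAB39, a scaffold of the LKB1 kinase complex, bases 168 to 330 were listed in both Landrace animals, while a separate site at bases 1 to 137 was listed in both Jinhua animals and Landrace 1. In SMAD4, the shared effector of TGF-β and BMP signalling, peaks at bases 19 to 141 and 1 to 138 were Landrace-only, and a further site at bases 203 to 386 was met in all 4 lists. JOSD2, EIF2D, CAMK2N1, LOXL1, ST6GALNAC2, SVEP1, NCF4 and C4BPA completed the first 15 in genes with a symbol.

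**Figure D5:**
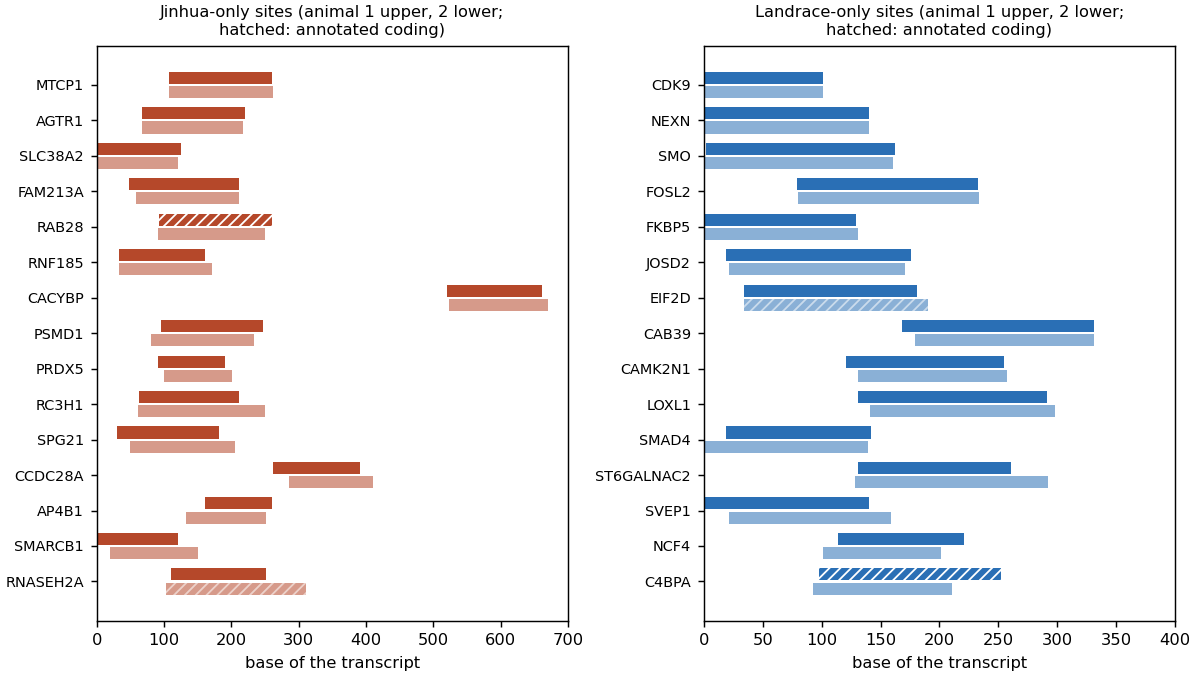
Peaks of the 15 Jinhua-only sites (left) and 15 Landrace-only sites (right) with the closest agreement between the 2 animals of the breed among genes with a symbol, drawn as bars over the bases of the transcript, animal 1 above animal 2. Hatched bars are peaks annotated as coding, and bars that begin at the left edge start at base 1 or 2, as those of CDK9, NEXN and SMO do.

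Of the 33 Jinhua-only sites 2 began at base 1, and of the 31 Landrace-only sites 9 did, beside 18.0% of all 5' UTR sites. At bases 2 to 50 there were 8 Jinhua-only and 4 Landrace-only sites, beside 24.7% of all 5' UTR sites. At bases 51 to 100 there were 11 and 7, beside 18.2%. These counts are small and were not tested.

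By role, a 5' UTR site was held by 684 of the 5132 genes kept (13.3%). Here and below, the called genes of a role or marker list are only those with 3 or fewer peaks in each list. This kept 45 of 68 identifiers with a peak for sarcomere and calcium-handling genes. It kept 33 of 38 for translation factors and 10 of 17 for fibro-adipogenic markers. Factors of translation initiation and elongation, including their regulators, held one in 9 of 33 called genes (27.3%), and 5 of the 9 sites were met in all 4 lists, beside 26.9% of all 5' UTR sites. EIF1, which guards the choice of start codon, had peaks at bases 1 to 147 in both Jinhua animals, 1 to 143 in Landrace 1 and 1 to 145 in Landrace 2. Its paralogue EIF1B had peaks from base 1 to bases 133 and 134 in Jinhua 1 and 2 and to base 128 in both Landrace animals. EIF1AX, a further factor of start codon scanning, had a site at bases 21 to 200, annotated as coding in both Jinhua animals and as 5' UTR in both Landrace animals. EIF4EBP2, a repressor of the cap-binding protein, had peaks at bases 101 to 270 and 93 to 268 in the Jinhua animals and 41 to 140 and 62 to 215 in the Landrace animals. EIF4G2, a scaffold of cap-independent initiation named after its values were seen, had peaks within bases 1 to 187 in all 4. EIF2D, whose site was Landrace-only, was not on this list.

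Immediate early and circadian genes held a site in 8 of 25 called genes (32%). Of their 9 sites 5 were in a single list, beside 38.7% of all 5' UTR sites. JUNB, an AP-1 subunit, held the 1 site met in all 4 lists, with peaks at bases 91 to 260 and 83 to 251 in Jinhua 1 and 2 and 80 to 281 and 83 to 255 in Landrace 1 and 2. MYC, the growth regulator, was listed at bases 48 to 205 in Jinhua 2 and 48 to 230 in Landrace 1. ZFP36L1, which promotes decay of AU-rich mRNAs, was listed in Jinhua 1 and Landrace 2. FOSL2 was described above. Of the stress-response genes 2 of 14 held a site. ATF3, a stress-induced transcription factor, had coding peaks at bases 33 to 234 and 49 to 210 in the Jinhua animals and 5' UTR peaks at bases 12 to 174 and 26 to 184 in the Landrace animals, and PPP1R15B was listed in Jinhua 2 alone.

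Genes of ubiquitin conjugation and the proteasome held a site in 18 of 91 called genes (19.8%). FBXO32, the muscle atrophy ligase atrogin-1, had peaks at bases 372 to 533 and 372 to 526 in Jinhua 1 and 2 and 361 to 519 and 372 to 526 in Landrace 1 and 2. UBE3C, a ligase that works at the proteasome, and PSME3, a proteasome activator, also had sites in all 4 lists, at bases 26 to 225 and 1 to 223. The PSME3 site held 2 peaks annotated as 5' UTR and 2 annotated as coding. Of this list's 22 sites 3 were Jinhua-only, in PSMD1, RNF185 and UBE2A, and none was Landrace-only, beside 4.60% and 4.32% over all 5' UTR sites. UBE2A was named after its values were seen.

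Among the genes of lipid metabolism 9 of 60 (15%) held a site. None of their 10 sites was breed-only, beside 4.60% Jinhua-only and 4.32% Landrace-only over all 5' UTR sites. ETFDH, which passes electrons from fatty acid oxidation to the respiratory chain, had peaks at bases 164 to 317 and 160 to 313 in Jinhua 1 and 2 and 119 to 275 and 158 to 311 in Landrace 1 and 2. ACADL, a long-chain acyl-CoA dehydrogenase, was met in both Jinhua lists and Landrace 1, and HADHB, a subunit of the mitochondrial trifunctional protein, in Jinhua 2 and both Landrace lists. The ACADL peak was annotated as 5' UTR in Jinhua 2 alone. Insulin, IGF and AMPK signalling had 4 of 25 (16%). Of this list's 6 sites, SLC2A4 held the 1 met in all 4 lists, beside 26.9% of all 5' UTR sites. CAB39 held the 1 that was Landrace-only, beside 4.32%.

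Contractile and calcium-handling genes matched the share over all genes, with 6 of 45 (13.3%). Of their 7 sites, 4 were in all 4 lists, beside 26.9% of all 5' UTR sites, and 2 of these 4 lie in CAMK2D. SLN, sarcolipin, the small inhibitor of the calcium pump, had peaks at bases 44 to 202 and 45 to 202 in Jinhua 1 and 2 and 33 to 188 and 41 to 196 in Landrace 1 and 2. Both Jinhua peaks of SLN began and ended after both Landrace peaks. MYOT, the Z-disc protein myotilin, had peaks within bases 1 to 215 in all 4, and the 2 CAMK2D sites completed this set. Muscle transcription factors and wasting genes held a site in 4 of 34 (11.8%), FBXO32 and SMAD4 among them. FST, follistatin, an antagonist of myostatin, was listed in both Jinhua animals and Landrace 1.

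Kinases and phosphatases held a site in 14 of 95 (14.7%), with 5 of 17 sites in all 4 lists, beside 26.9% of all 5' UTR sites. These 5 were in CSNK1A1, DYRK1A, MAP3K3, PPP3CA and, named after its values were seen, PPP4R3A. Heat shock proteins and cochaperones held one in 5 of 40 (12.5%), of which PTGES3 alone was shared by all 4 animals. Splicing and RNA-binding factors had 9 of 75 (12%), with CLK2, HNRNPF and PRPF19 in all 4 lists. At the CLK2 site the Jinhua 1 peak was annotated as coding. Chromatin and transcription factors had 8 of 83 (9.64%), with MAFF and ZBTB44 in all 4. Genes of mitochondria and respiration had 5 of 77 (6.49%), with VDAC3, a channel of the outer membrane, the member found in every list. The VDAC3 site held 1 peak annotated as 5' UTR and 3 annotated as coding. Ribosomal proteins had 2 of 45 (4.44%), RPL30 in 3 lists and RPS27L in Jinhua 1. The shares thus ran from 4.44% to 32% over these lists around the 13.3% of all genes, and with lists of this size no list was tested against the rest. Sites met in all 4 lists were 1 of 5 for heat shock genes and 3 of 9 for splicing genes. For chromatin and mitochondrial genes they were 2 of 9 and 1 of 5, beside 26.9% of all 5' UTR sites.

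Among 10 called genes for the m6A machinery, only PCIF1, the cap-adjacent m6Am writer named above, held a 5' UTR site. It was listed at bases 362 to 530 in Jinhua 2 and 381 to 543 in Landrace 1, far from base 1, and not in Jinhua 1 or Landrace 2. MTCH2, the mitochondrial membrane protein that the study's title names, held no 5' UTR site.

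Muscle holds other cells, and fewer cells of a type cannot be told apart from less RNA per cell in bulk tissue. Of 5 called adipocyte markers none held a 5' UTR site, and none of 4 called nerve, satellite cell and blood markers did. Of 10 fibro-adipogenic markers 1 did, VIM, the intermediate filament vimentin, with a site at bases 1 to 120 met in all 4 lists. The VIM site held 2 peaks annotated as 5' UTR and 2 annotated as coding. Of 10 endothelial markers 1 did, EGFL7, a secreted vascular protein, met in both Jinhua lists and Landrace 1. Of 5 immune markers 2 did, the macrophage receptor CSF1R in all 4 lists and the complement subunit C1QC in Jinhua 2. The CSF1R peak was annotated as 5' UTR in Landrace 1 alone and as coding in the other lists. The part of other cell types in the breed-only sites was not tested.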

How the data were processed

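Peaks came from IP and input RNA of 4 animals. Per the submitters' processing notes, the aligner was TopHat2 2.0.14 and builds are named as Sscrofa10.2 and susScr3. Not given in the sources used here are the annotation release, the threshold and the peak caller. Lists were deposited per animal, not pooled. Per the file headers each line gives a gene, 1 transcript, the number of peaks, and the first base, last base and annotated part of each peak. Of 5650 genes, 518 had over 3 peaks in some list and were left out, because the lists of Jinhua 2 and Landrace 1 give the part for at most 3 peaks.

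Overlapping or adjoining peaks were merged with Python 3.11.15, and per-animal values were compared by exact permutation. The steps were tested on simulated lists of 3000 transcripts, where 100% of planted sites were recovered. Planted peaks of a site always overlapped, and none was annotated as coding. The simulation therefore checked the code only, and not mixed or widely spread sites. The lists named 567 of the 684 genes, 2 of them by a symbol turned into a date, a gene name table named 59, and 58 stayed unnamed. The members and gene lists were chosen with earlier results of these data known. Text names the shared sites (20) and breed-only sites (15 per breed) with the largest common part, the 5 transcripts with most sites, the 5 farthest sites in 2 or more lists, all among genes with a symbol, and up to 4 examples per gene list. Some genes that this rule names are not reported here. Alternatives were another overlap rule, wider merging, width minima, annotation rules, genes called in all lists and leaving out each animal. No sequence or genome position is given.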

Additional observations from a re-analysis of the deposited data

Results flagged for a closer look

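Annotated 5' UTR peaks also lay in genes outside the rule. Genes with more than 3 peaks in a list held 315 of them, with 83 in Jinhua 1, 66 in Jinhua 2, 80 in Landrace 1 and 86 in Landrace 2. They merged into 117 sites in 105 genes, of which 53 were met in all 4 lists. The lists of Jinhua 2 and Landrace 1 leave out the part of later peaks, so their counts here are too low. A further 140 peaks were annotated as UTR with no side given, with 24 and 50 in Jinhua 1 and 2 and 33 in each Landrace animal. They formed 68 sites in 49 genes, with 13 in all 4 lists.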

How the results depend on the processing

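Of the results given for all animals, the difference in 5' UTR peaks per animal ranged from -26.5 to 61.5 when 1 animal was left out and was -24 without Landrace 2. The difference in share ranged from -1.41 to 0.0777 percentage points. The difference in sharing, 5' UTR minus coding, became 0.415 points in genes called in all 4 lists and 2.77 with peaks of 150 bases or more, a minimum chosen after seeing the data. Against 3' UTR peaks it became 0.220 in genes called in all 4 lists. Jinhua-only sites numbered 54 to 151 and Landrace-only sites 51 to 98 when 1 animal was left out, as fewer lists then decide the class. In genes called in all 4 lists they numbered 3 and 15. With peaks of 150 bases or more 90 sites were in all 4 lists and 9 were Landrace-only. With sites whose peaks were all annotated as 5' UTR, also added after seeing the data, 123 were in all 4 lists. Other rules for overlap, merging and annotation, and the use of genes with more peaks, kept the direction of each difference and each count within 1.5 times, although the difference in peaks was 9 with genes of more peaks and 43 with every peak at a 5' UTR site counted, and no peak was under the planned minimum of 100 bases. The difference in median width stayed negative throughout, between -9.33 and -4.25 bases. The causes were not tested.

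For animals of equal replicate number, deviations from breed means correlated at -0.0227 over genes for peaks per gene and -0.0823 for 5' UTR peaks per gene. With 2 animals per breed this cannot settle whether replicate numbers pair the animals. With the replicate block the differences stayed at 17.5 peaks and -0.667 percentage points (exact sign-flip permutation test, p = 1 for both). Depth is unknown, and 2 animals per breed and the lack of enrichment values limit every comparison to presence and position.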
